A study of Rattus norvegicus with 9 samples.

Results

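The genes described here serve protein folding in the endoplasmic reticulum (ER), the unfolded protein response and ER turnover, and were measured in rat liver. They are 36 genes in 4 roles, named by symbol; the rule uses no signal, but the genes were chosen with earlier results of these arrays known. Of these, 34 were among the 10411 named genes of the array, where 46 of 15923 probe sets carried a member's symbol; a probe set is a group of short probes against 1 transcript. The 34 comprise 15 genes of chaperones and folding enzymes, 5 of the translocation channel, 6 of stress signalling and 8 of degradation and turnover. Ern1 and Atf6, which encode ER stress sensors, were not analysed here. Total RNA of whole liver was hybridised to 9 one-colour arrays, 3 for each of the groups Sham-Sham, Sham-CLP and Burn-CLP. Sham-Sham is the control; going by the names, the other groups both received CLP, after a sham step in Sham-CLP and after a burn in Burn-CLP. CLP is not spelled out in the labels, but in rodent injury work it is cecal ligation and puncture, an abdominal infection model. The labels used here give no strain, age or time after injury. They also do not tell whether the arrays of a group came from different animals, so p-values measure the spread between these samples only, and that spread may be technical.

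The ER is where secreted and membrane proteins enter the secretory route: they pass the Sec61 channel, are held by chaperones such as BiP and calreticulin, and receive disulfide bonds from protein disulfide isomerases. When unfolded proteins accumulate, membrane sensors start the unfolded protein response, in which the transcription factors XBP1, ATF6 and ATF4 raise chaperone and degradation genes and translation is slowed. Proteins that fail to fold are returned to the cytosol for breakdown, and stretches of the ER itself can be removed by autophagy. Hepatocytes depend on this machinery because they secrete most plasma proteins.

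The values are signals on a linear scale, quantile normalized between arrays and held at or above a floor of 64.3; changes are differences of mean log2 signals. All 46 member probe sets passed the filter on dim signals, as did 13535 of all probe sets. Differences were tested with limma over all 9 arrays, and p-values were adjusted over the 13535 probe sets by the Benjamini-Hochberg method; "called" means an adjusted p under 0.05. The number of arrays limits the precision: the smallest two-sided p of an exact permutation test of 3 arrays against 3 is 0.1, and no such test was run on single genes. The deposited array medians ran from 205 to 268.1. Sham-Sham 1 correlated least with the rest (mean r over all probe sets tested 0.890, against 0.922 to 0.949 for the other arrays). Of 8 hepatocyte markers, 7 were on the array; among them, the brighter Alb (albumin) probe set and Ttr (transthyretin) had lowest signals of 32863 and 18182 over the 9 arrays.

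Liver of the Burn-CLP group had more RNA of Edem1 and Retreg1 than Sham-Sham liver, 5.68-fold and 7.07-fold by mean log2 signal. Edem1 encodes a lectin-like protein that directs misfolded glycoproteins to degradation, and Retreg1, also called Fam134b, encodes a receptor for autophagy of ER sheets. No chaperone, translocation or signalling gene changed past the threshold in any comparison. In a bulk sample, fewer cells of a type and less RNA per cell cannot be told apart. Between Burn-CLP and Sham-Sham, 2 of 46 member probe sets were called, both higher, where 0.746% of all probe sets were called; both calls depended on single arrays, as given with each gene. The 101 probe sets behind that share became 645 without Sham-Sham 3, 221 without Burn-CLP 3, 75 without Sham-CLP 3 and 19 to 42 without each of the other arrays. At an unadjusted p under 0.05 the number was 17 of 46, 8 higher and 9 lower, against 19.9% of all probe sets. Groups did not overlap in 6 member probe sets with Burn-CLP higher, where the share over all probe sets was 11%, and in 13 with Burn-CLP lower, where it was 10.5%. The median change over the 34 genes, with 1 probe set a gene, was -0.10, beside 0.01 over all probe sets tested. Leaving out Burn-CLP 1 gave -0.25 for the members, and leaving out Burn-CLP 3 gave -0.01.

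Between Sham-CLP and Sham-Sham, 0 of 46 member probe sets were called by limma, where 0.0591% of all were; those 8 became 347 without Sham-Sham 3, 13 without Burn-CLP 2 and 4 to 7 without each of the other arrays. Of the members, 7 passed an unadjusted p under 0.05, 5 higher and 2 lower, against 11.7% of all probe sets. Groups did not overlap in 6 with Sham-CLP higher (8.1% of all probe sets) and in 8 with Sham-CLP lower (8.65%). Between Burn-CLP and Sham-CLP, 0 were called by limma as well, where 0.0148% of all were, and 7 passed the unadjusted threshold (9.09% of all). The 2 probe sets called in all became 36 without Burn-CLP 3, 9 without Sham-Sham 3 and at most 1 without each of the other arrays. Here groups did not overlap in 4 with Burn-CLP higher (9.61% of all) and in 9 with Burn-CLP lower (9.22%). The comparisons share arrays: both CLP groups are set against the same Sham-Sham arrays, and their changes from it are not independent. A moderated F test over the 3 groups called 0 of 46 member probe sets in the same limma fit, with 13 under an unadjusted p of 0.05 and a smallest adjusted p of 0.0731, for Edem1; it called 20 of 13535 probe sets in all.

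**Figure D1:**
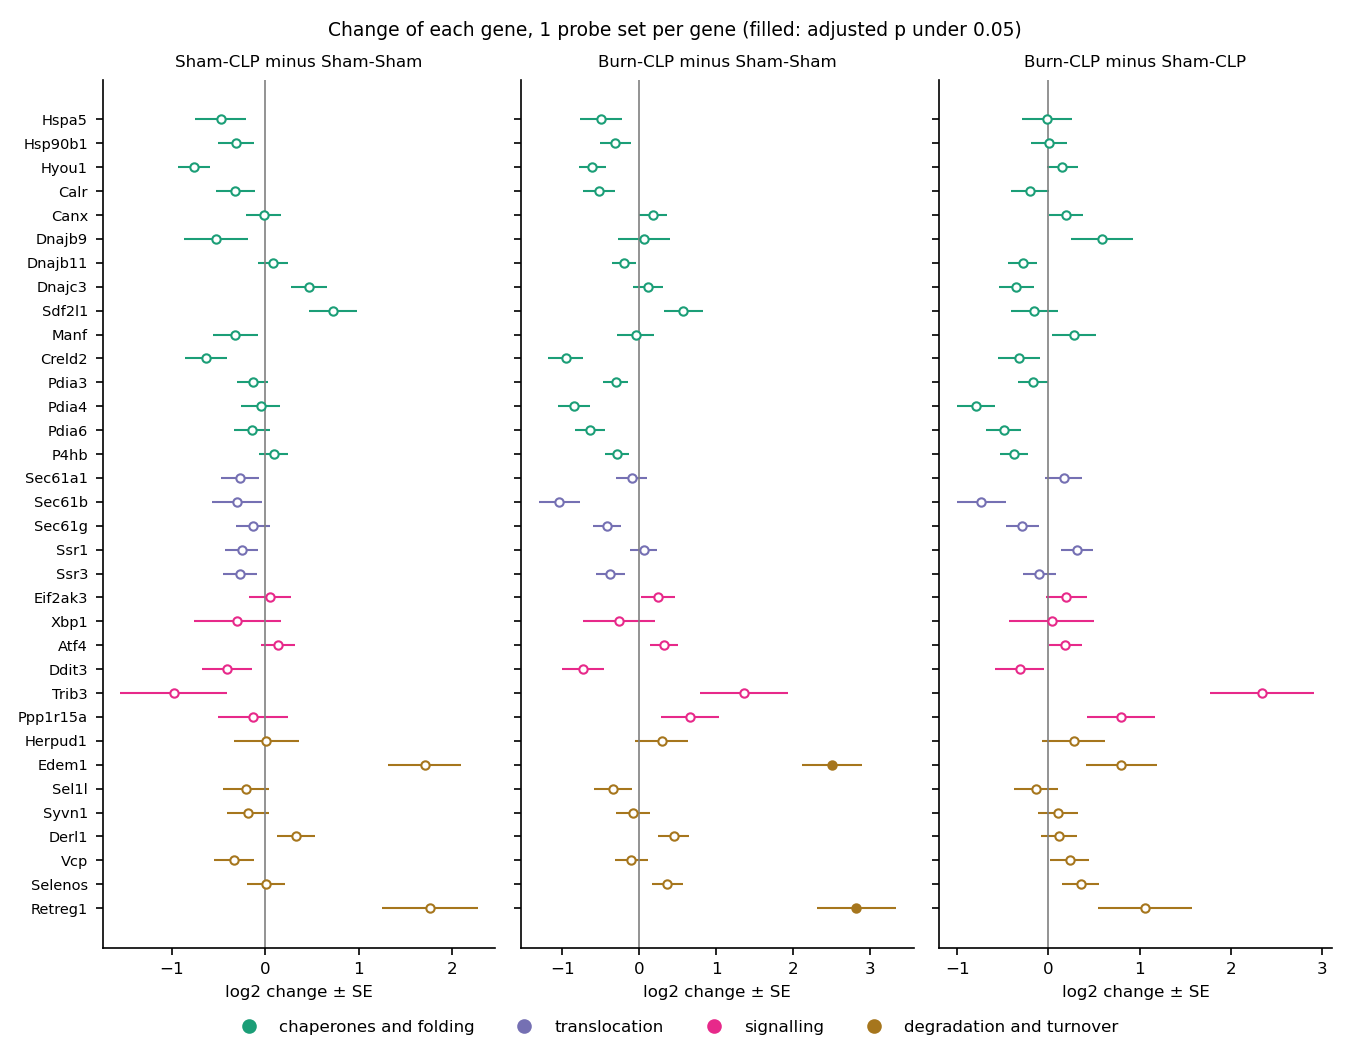
Log2 change of each of the 34 genes (1 probe set a gene, the one with the highest mean signal) in the 3 comparisons; points are the fitted changes, bars 1 standard error (SE), colours the roles, and filled points adjusted p under 0.05. Only Edem1 and Retreg1 have filled points, both in Burn-CLP minus Sham-Sham; Trib3 lies farthest right in Burn-CLP minus Sham-CLP, with the widest bar.

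The promoters of several members carry known binding motifs of this response, and 5 promoters are printed here. They are those of the called members Edem1 and Retreg1 and of Trib3, Xbp1 and Hspa5. RefSeq promoter windows of rat build GRCr8, from 250 bases before to 50 bases after each gene's start, were matched by symbol for 29 of the 34 genes; Hyou1 has 2 windows, which makes 30. Both strands were searched for 4 motifs. They were chosen as known motifs of this response, so a higher share among its genes is no result of these arrays. The ER stress response element (ERSE), bound by ATF6 with NF-Y, was searched as CCAAT, 9 bases and CCACG. It stood in 7 of 30 member windows and in 22 of 33469 windows of all genes (0.0657%), the members included here and below. ERSE-II, searched as ATTGG, 1 base and CCACG, stood in 3 of 30 and in 0.0508% of all. The XBP1 core TGACGTG stood in 3 of 30 and in 1.81% of all, and the ATF4 core, TGATG, 1 base and AA, in 2 of 30 and in 3.98% of all. In the Hyou1 window that holds both, the XBP1 core overlaps an ERSE-II match. Chaperone genes held 6 of the 7 windows with ERSE; the other was that of Xbp1. The lines below give the 250 bases before the start, 5' to 3' on the gene's strand, with the searched letters of any match in capitals (a match on the other strand appears as its reverse complement).
Edem1 (chr4:143353425-143353674, plus strand): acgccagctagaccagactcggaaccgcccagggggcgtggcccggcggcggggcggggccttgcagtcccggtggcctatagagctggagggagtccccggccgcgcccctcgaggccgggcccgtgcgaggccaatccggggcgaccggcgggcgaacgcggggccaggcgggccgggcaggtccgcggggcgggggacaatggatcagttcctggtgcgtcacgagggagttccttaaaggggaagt
Retreg1 (chr2:78065874-78066123, plus strand): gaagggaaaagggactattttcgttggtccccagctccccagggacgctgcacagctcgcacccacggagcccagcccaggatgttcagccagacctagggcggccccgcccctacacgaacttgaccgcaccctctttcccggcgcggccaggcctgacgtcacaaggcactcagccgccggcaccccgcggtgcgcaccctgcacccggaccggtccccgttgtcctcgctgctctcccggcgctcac
Trib3 (chr3:161275534-161275783, minus strand): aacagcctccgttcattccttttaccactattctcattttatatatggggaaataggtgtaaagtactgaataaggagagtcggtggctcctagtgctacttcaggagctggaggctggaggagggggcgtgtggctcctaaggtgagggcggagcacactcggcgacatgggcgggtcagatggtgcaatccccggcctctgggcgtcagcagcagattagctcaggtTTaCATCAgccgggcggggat
Xbp1 (chr14:84604373-84604622, plus strand): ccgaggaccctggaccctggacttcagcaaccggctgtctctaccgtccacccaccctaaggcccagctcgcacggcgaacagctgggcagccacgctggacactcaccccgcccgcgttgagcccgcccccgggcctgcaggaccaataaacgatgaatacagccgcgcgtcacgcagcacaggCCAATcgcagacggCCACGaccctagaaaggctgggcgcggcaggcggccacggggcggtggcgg
Hspa5 (chr3:38452766-38453015, plus strand): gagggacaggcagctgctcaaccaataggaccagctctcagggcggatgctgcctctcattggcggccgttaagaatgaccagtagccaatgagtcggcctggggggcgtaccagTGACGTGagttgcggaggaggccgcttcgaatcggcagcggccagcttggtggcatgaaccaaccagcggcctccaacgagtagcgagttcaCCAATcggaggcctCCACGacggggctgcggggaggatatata
The Edem1 and Retreg1 windows held no match to any of the 4 motifs, which says only that these letters are not in these windows. Trib3 has an ATF4 core from 21 to 14 bases before the start, read on the other strand. Xbp1 has an ERSE from 65 to 47 bases before its start, and Hspa5 has an XBP1 core from 135 to 129 and an ERSE from 43 to 25 bases before its own. A match is a description of the letters and was not tested as a site.

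Degradation and turnover genes held both called members. Edem1 read 2812, 1875 and 1026 in Sham-Sham, 6427, 7206 and 4066 in Sham-CLP and 10505, 13637 and 6934 in Burn-CLP (arrays 1, 2 and 3 of each group, here and below). All Sham-CLP and Burn-CLP arrays lay above all Sham-Sham arrays, while Burn-CLP 3 lay inside the Sham-CLP range. The group means were 1904 ± 893, 5899.7 ± 1635 and 10358 ± 3354 (SD, n = 3 each). Edem1 rose 5.68-fold in Burn-CLP over Sham-Sham (log2 change 2.51 ± 0.39 SE, 95% interval 1.63 to 3.39, limma adjusted p = 0.0324). Against Sham-Sham, Sham-CLP differed by 1.71 ± 0.39 without passing (adjusted p = 0.243), and Burn-CLP differed from Sham-CLP by 0.80 ± 0.39 (adjusted p = 0.58). Edem1 no longer passed when Burn-CLP 2 (adjusted p = 0.126), Burn-CLP 1 (0.0976), Sham-Sham 2 (0.0791), Sham-CLP 1 (0.0594) or Sham-CLP 2 (0.0533) was left out, with changes from 2.28 to 2.56 in those fits.

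Retreg1 has 2 probe sets. The brighter one read 1031, 1844 and 639 in Sham-Sham, 4694, 5454 and 1847 in Sham-CLP and 7047, 12393 and 4917 in Burn-CLP. Every Burn-CLP array was above every Sham-Sham array, Sham-CLP 3 exceeded Sham-Sham 2 by a few units only, and Burn-CLP 2 was the highest array. Mean signals were 1171 ± 615, 3998 ± 1901 and 8119 ± 3852 (SD, n = 3 each). Retreg1 rose 7.07-fold in Burn-CLP over Sham-Sham (2.82 ± 0.51 SE, interval 1.67 to 3.97, limma adjusted p = 0.0455); it differed by 1.76 ± 0.51 in Sham-CLP over Sham-Sham (adjusted p = 0.306) and by 1.06 ± 0.51 between the CLP groups (adjusted p = 0.575). The dimmer probe set also had every CLP array above every Sham-Sham array, with 211, 318 and 225, 726, 683 and 367 and 805, 1890.1 and 567. Its change in Burn-CLP over Sham-Sham, 1.95 ± 0.43, did not pass (adjusted p = 0.0693). The brighter probe set no longer passed when Burn-CLP 2 (adjusted p = 0.167), Sham-Sham 1 (0.111), Burn-CLP 1 (0.108), Sham-CLP 1 (0.0801), Sham-CLP 2 (0.0699) or Sham-Sham 2 (0.0638) was left out; the dimmer one passed when Burn-CLP 3 was (0.0426).

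**Figure D2:**
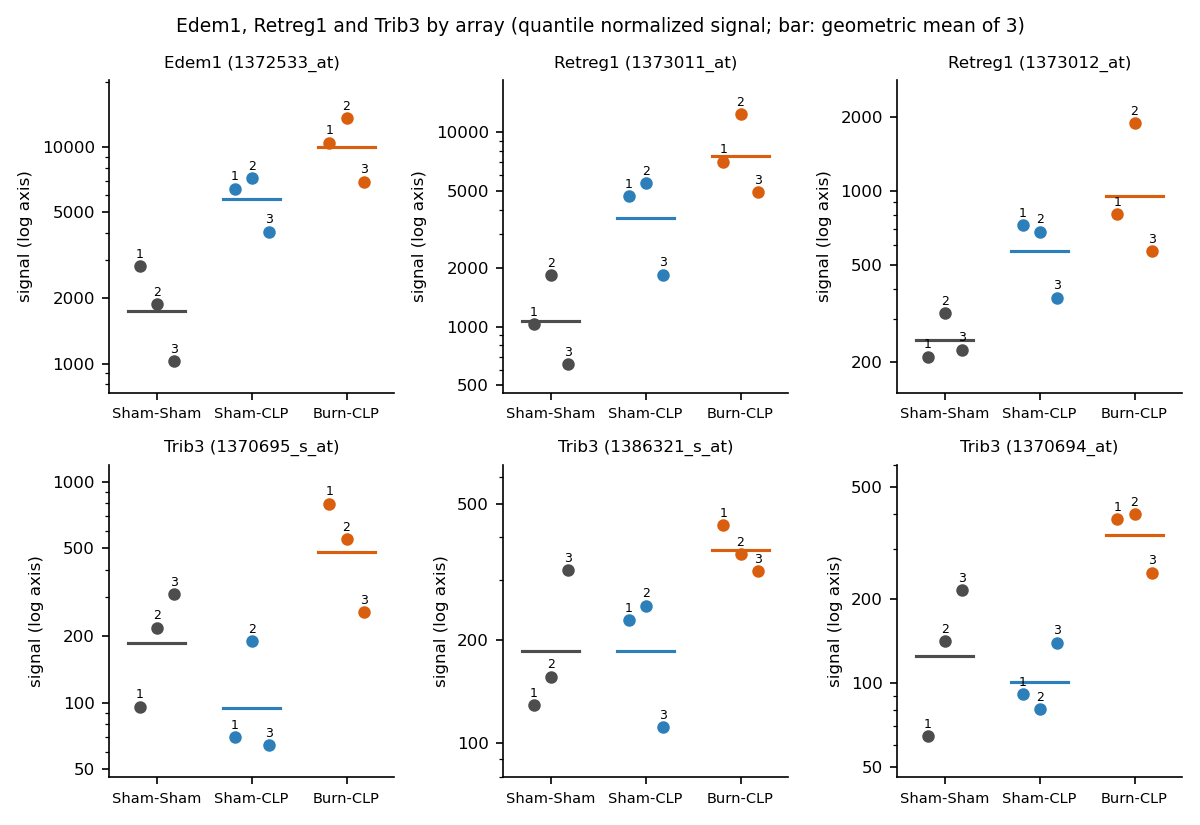
Quantile normalized signal of the Edem1, Retreg1 and Trib3 probe sets on each array (log axis, a different range in each panel); points are arrays with their number, bars the geometric mean of 3 arrays. For Edem1 and both Retreg1 probe sets all CLP arrays lie above the Sham-Sham arrays; for Trib3 the Burn-CLP arrays lie above the Sham-CLP arrays at all 3 probe sets.

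The other degradation genes differed less. Derl1 encodes derlin-1, a membrane protein of the channel that returns proteins to the cytosol, and has 3 probe sets. The brightest read 1364, 1383 and 1389.9 in Sham-Sham, 1875, 1694 and 1639.6 in Sham-CLP and 1659, 1599.6 and 2514 in Burn-CLP. All CLP arrays exceeded the Sham-Sham arrays, which lay within a factor of 1.02; the change was 0.45 ± 0.20 in Burn-CLP (adjusted p = 0.25), and 0.16 and 0.23 at the other probe sets. Selenos, a selenoprotein that tethers the ATPase p97 to the ER membrane, read 1049, 1053 and 1262, 1017, 1285 and 1089 and 1337, 1844 and 1209. Its Burn-CLP arrays overlapped the Sham-Sham range, and the change was 0.37 ± 0.20 (adjusted p = 0.342). Herpud1, a ubiquitin-like scaffold of the degradation complex, ranged from 1151 to 1672 in Sham-Sham but from 1002 to 2765 in Burn-CLP (change 0.29 ± 0.34). For the ubiquitin ligase Syvn1 and its partner Sel1l the changes were -0.08 ± 0.22 and -0.34 ± 0.24, and for Vcp, which encodes p97 itself, -0.10 ± 0.21. Of 8 genes, 5 had a positive change in Burn-CLP over Sham-Sham, with a median of 0.33, and 5 of 11 probe sets lay higher without overlap and 0 lower, where the shares over all probe sets were 11% and 10.5%. Those 5 probe sets belong to Edem1, Retreg1 and Derl1 only, and the groups overlapped for the other degradation genes. The role's median was 0.08 without Burn-CLP 2, which was the highest of 9 arrays in 7 of 11 of these probe sets (63.6%, against 16.4% of all probe sets).

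No signalling probe set was called in any comparison, and the changes had both signs. Trib3, a pseudokinase gene induced by ATF4 and its partner CHOP, had the widest difference between the CLP groups. Its brightest probe set read 95.9, 219 and 311 in Sham-Sham, 69.7, 191 and 64.3 in Sham-CLP, where array 3 was at the floor, and 795, 549 and 256 in Burn-CLP. All Burn-CLP arrays exceeded all Sham-CLP arrays, but Burn-CLP 3 was below Sham-Sham 3. The difference between Burn-CLP and Sham-CLP was 2.35 ± 0.57 SE (interval 1.06 to 3.63) and did not pass (limma adjusted p = 0.333). Against Sham-Sham, Burn-CLP differed by 1.37 ± 0.57 (adjusted p = 0.232) and Sham-CLP by -0.98 ± 0.57 (adjusted p = 0.525). A dimmer probe set read 129, 157 and 319.8, 228, 252 and 111 and 434, 357 and 318, and the remaining one 64.3, 141 and 214, 91.3, 80.7 and 139 and 384, 401 and 247, with Sham-Sham 1 at the floor. Both had Burn-CLP above Sham-CLP without overlap, by 0.98 ± 0.39 and 1.74 ± 0.41 (adjusted p = 0.497 and 0.327). The remaining one was called in Burn-CLP over Sham-Sham only when Sham-Sham 3 was left out (adjusted p = 0.0369, against 0.125 with it), and between the CLP groups only with array weights (adjusted p = 0.0371). The ATF4 core of the Trib3 promoter is in the printed window.

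Upstream of Trib3, the kinase gene Eif2ak3 (PERK), which starts this branch, differed by 0.25 ± 0.22 in Burn-CLP over Sham-Sham. Atf4 read 2681, 2258 and 2897 in Sham-Sham, 2954, 2697 and 2921 in Sham-CLP and 3013, 3947 and 2874 in Burn-CLP, with Burn-CLP 2 highest and overlapping groups; the change from Sham-Sham to Burn-CLP was 0.32 ± 0.18 (adjusted p = 0.354). ATF4 is controlled largely by translation of its RNA, which arrays do not measure. Ddit3, which encodes the transcription factor CHOP, had a change of the opposite sign to Trib3: it read 401, 247 and 273, 257, 237 and 189 and 127, 219.7 and 215. Every Burn-CLP array was below every Sham-Sham array, by -0.72 ± 0.27 in the mean, without passing (adjusted p = 0.196). Ppp1r15a, also called GADD34, encodes the phosphatase subunit that restores translation. It read 473, 399.6 and 299.7, 534, 318 and 253 and 636, 949.5 and 372, and Burn-CLP 1 and 2 were the highest arrays while Burn-CLP 3 was inside the other groups' range (0.66 ± 0.38, adjusted p = 0.35).

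Xbp1, the transcription factor gene whose RNA is spliced by IRE1, was the most variable member within Burn-CLP. It read 6307, 5330.2 and 4385 in Sham-Sham, 3279, 3804 and 6359.7 in Sham-CLP and 9479, 4032 and 2237 in Burn-CLP. Burn-CLP held both the highest and the lowest of the 9 arrays, 4.24-fold apart, a ratio that exceeded that of 99.1% of all probe sets tested. The means differed by -0.26 ± 0.47 between Burn-CLP and Sham-Sham (interval -1.31 to 0.78) and by 0.04 ± 0.47 between the CLP groups, and limma's adjusted p was 0.783 and 0.992. The probe set does not tell the spliced from the unspliced form. Of the 6 signalling genes 4 had a positive change in Burn-CLP over Sham-Sham, with a median of 0.28; leaving out Burn-CLP 2 gave 0.18, and leaving out Burn-CLP 3 gave 0.44.

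**Figure D3:**
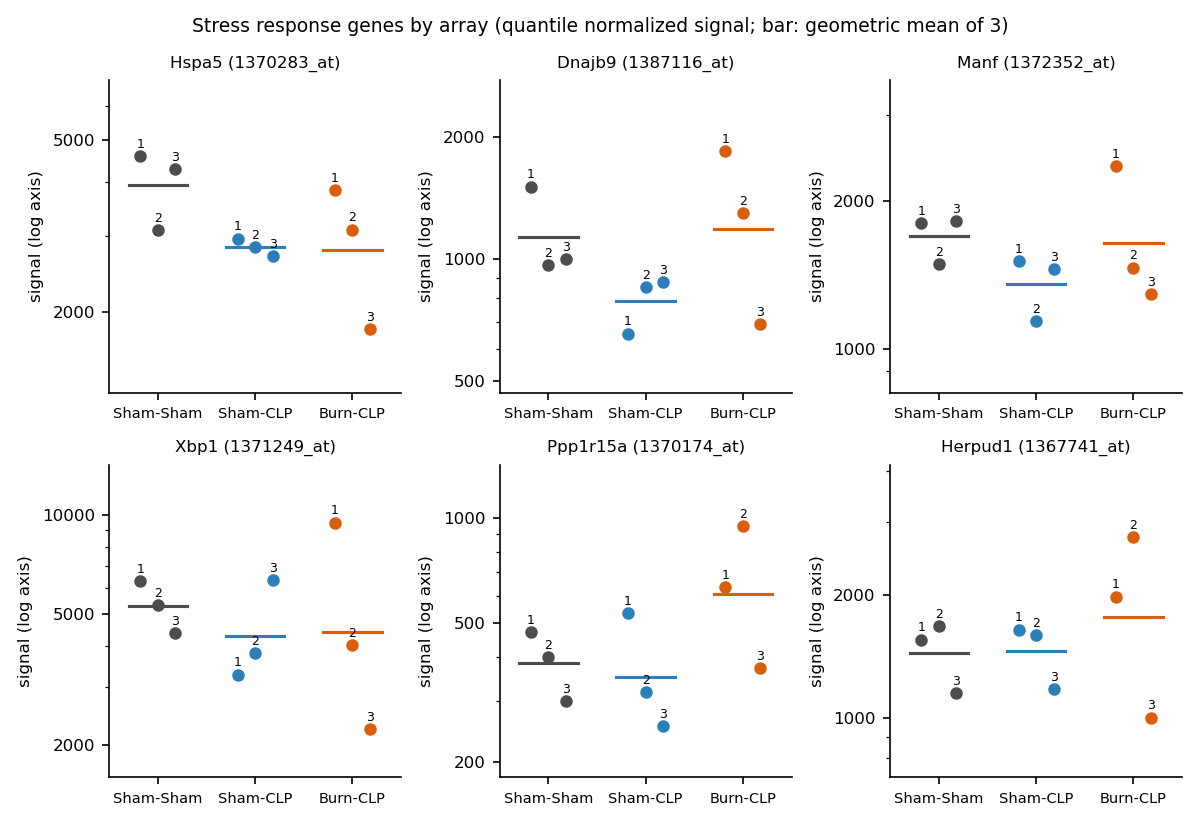
Quantile normalized signal of 6 stress response genes on each array (log axis, a different range in each panel); points are arrays with their number, bars the geometric mean of 3 arrays. In Burn-CLP, array 3 is the lowest of the group in every panel, and array 1 or 2 the highest.

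Other members had wide but smaller spreads within Burn-CLP. The ratio of the highest to the lowest Burn-CLP array was 3.33 at the dimmer Retreg1 probe set and 3.10 at the brightest Trib3 probe set, larger than those of 98.2% and 97.6% of all probe sets. It was 2.76 for Herpud1, 2.67 for Dnajb9, a co-chaperone of BiP, and 2.55 for Ppp1r15a, larger than those of 96.4%, 95.9% and 95.1% of all probe sets. Dnajb9 read 1846, 1300.4 and 692 in Burn-CLP against 1509, 966 and 1001 in Sham-Sham. Manf, a secreted ER protein, read 2352, 1463 and 1295 against 1804, 1486 and 1819. In both genes Burn-CLP 1 was the highest of the 9 arrays and Burn-CLP 3 was below every Sham-Sham array. Over all members, Burn-CLP 3 was the lowest of 9 arrays in 14 of 46 probe sets (30.4%), against 6.58% of all probe sets tested, and in 8 of 19 chaperone probe sets. Pdia3, Pdia4, Pdia6 and P4hb did not share this spread: their Burn-CLP arrays lay within a factor of 1.07, 1.21, 1.22 and 1.12. These patterns were singled out after the values were seen.

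Chaperones and folding enzymes were mostly lower in Burn-CLP than in Sham-Sham by their means, and 0 of 19 probe sets was called by limma. Of 15 genes, 11 had a negative change and the median was -0.31, beside 0.01 over all probe sets; 7 of 19 probe sets were lower without overlap and 0 higher, where 10.5% and 11% of all probe sets were. At an unadjusted p under 0.05 there were 6 of 19, 5 of them lower, against 19.9% of all. The median was -0.19 without Burn-CLP 3. In Sham-CLP over Sham-Sham, too, 11 of 15 genes had a negative change, with a median of -0.14. There 7 of 19 probe sets were lower without overlap and 2 higher, where 8.65% and 8.1% of all probe sets were. Creld2, a disulfide isomerase-like ER protein induced by stress, read 489, 336 and 413 in Sham-Sham, 286, 208 and 307 in Sham-CLP and 249, 176 and 212 in Burn-CLP. Both CLP groups lay wholly below Sham-Sham, by -0.63 ± 0.23 (adjusted p = 0.361) and -0.96 ± 0.23 (adjusted p = 0.0772). Pdia4, a protein disulfide isomerase with several catalytic domains, read 2177, 2826 and 2891, 2296, 2166 and 3225 and 1411, 1341 and 1619.9. Its Burn-CLP arrays were below all other arrays, -0.85 ± 0.21 from Sham-Sham (adjusted p = 0.0837) and -0.80 ± 0.21 from Sham-CLP (adjusted p = 0.355), while Sham-CLP differed from Sham-Sham by -0.05 ± 0.21.

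Among the other disulfide isomerases of the 36 genes, the brightest probe sets of Pdia6, P4hb and Pdia3 had negative changes that did not pass, while Pdia5, from the list of other pathway genes, differed by 0.21 with overlapping groups. Pdia6 read 4221, 3566 and 4583 in Sham-Sham, 3450.0, 3254 and 4568 in Sham-CLP and 2314, 2819 and 2819 in Burn-CLP, again with Burn-CLP below every other array (-0.64 ± 0.19 from Sham-Sham, adjusted p = 0.139). P4hb, the abundant isomerase that is also a subunit of prolyl hydroxylase, read 8332, 9399 and 9479, 9088, 9588 and 10288 and 6969, 7539 and 7832. The Burn-CLP arrays were again the lowest, at a smaller difference (-0.28 ± 0.15, adjusted p = 0.331). Pdia3, the isomerase that works with calnexin and calreticulin on glycoproteins, read 3528, 4679.8 and 4203, 3614, 3577 and 4074 and 3430.0, 3341 and 3205 at its brighter probe set. Burn-CLP was lowest without overlap there (-0.31 ± 0.17, adjusted p = 0.333), whereas the dimmer Pdia3 probe set differed by 0.53 ± 0.35, with Sham-Sham 1 far below its group at 92.4.

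Among the major chaperones, Hyou1, an exchange factor for BiP, read 741, 747 and 714 in Sham-Sham, 428, 407 and 467 in Sham-CLP and 562, 494 and 402 in Burn-CLP. Sham-Sham arrays were the highest, within a factor of 1.05; Sham-CLP differed by -0.76 ± 0.17 (adjusted p = 0.243) and Burn-CLP by -0.61 ± 0.17 (adjusted p = 0.117), and the dimmer probe set by -0.44 and -0.40. Hspa5, which encodes BiP, the central ER chaperone and usual marker of ER stress, read 4589.7, 3101 and 4277, 2961, 2831 and 2697 and 3829, 3104 and 1825. Sham-CLP was below Sham-Sham without overlap, Burn-CLP overlapped both groups, and the changes were -0.48 ± 0.27 and -0.50 ± 0.27 (adjusted p = 0.517 and 0.341). The interval in Burn-CLP was -1.11 to 0.12. It depended on Burn-CLP 3, the lowest of the 9 arrays: the change was -0.19 without that array and -0.20 with array weights. For Hsp90b1 (GRP94) the changes from Sham-Sham were -0.31 ± 0.20 in Sham-CLP and -0.31 ± 0.20 in Burn-CLP, for the lectin chaperone gene Calr -0.32 ± 0.21 and -0.53 ± 0.21, and for its membrane partner Canx -0.02 ± 0.18 and 0.18 ± 0.18. The other Canx probe sets differed by 0.25 and -0.14 in Burn-CLP.

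The remaining folding genes had changes of both signs. Sdf2l1, a partner of the BiP co-chaperones, differed by 0.73 ± 0.26 in Sham-CLP, without overlap with Sham-Sham, and by 0.57 ± 0.26 in Burn-CLP (adjusted p = 0.355 and 0.252). Dnajc3, which encodes the co-chaperone p58IPK, differed by 0.47 ± 0.19 in Sham-CLP, also without overlap, and by 0.12 ± 0.19 in Burn-CLP. Dnajb11, another J-domain co-chaperone, differed by 0.08 ± 0.16 and -0.20 ± 0.16. For Dnajb9 these differences were -0.52 ± 0.34 and 0.06 ± 0.34, and for Manf -0.32 ± 0.24 and -0.04 ± 0.24. The 10 genes whose promoter window holds ERSE or ERSE-II had a median change of -0.28 in Burn-CLP over Sham-Sham, 7 of them negative, and the 19 with a window and neither motif had a median of 0.06. These medians were -0.305 and -0.13 in Sham-CLP over Sham-Sham and -0.01 and 0.18 in Burn-CLP over Sham-CLP. Apart from Herpud1 and Xbp1 the 10 are chaperone and folding genes, while the 19 include Edem1, Retreg1 and Trib3. The split thus largely repeats the roles, and a link between motif and change was not tested.

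**Figure D4:**
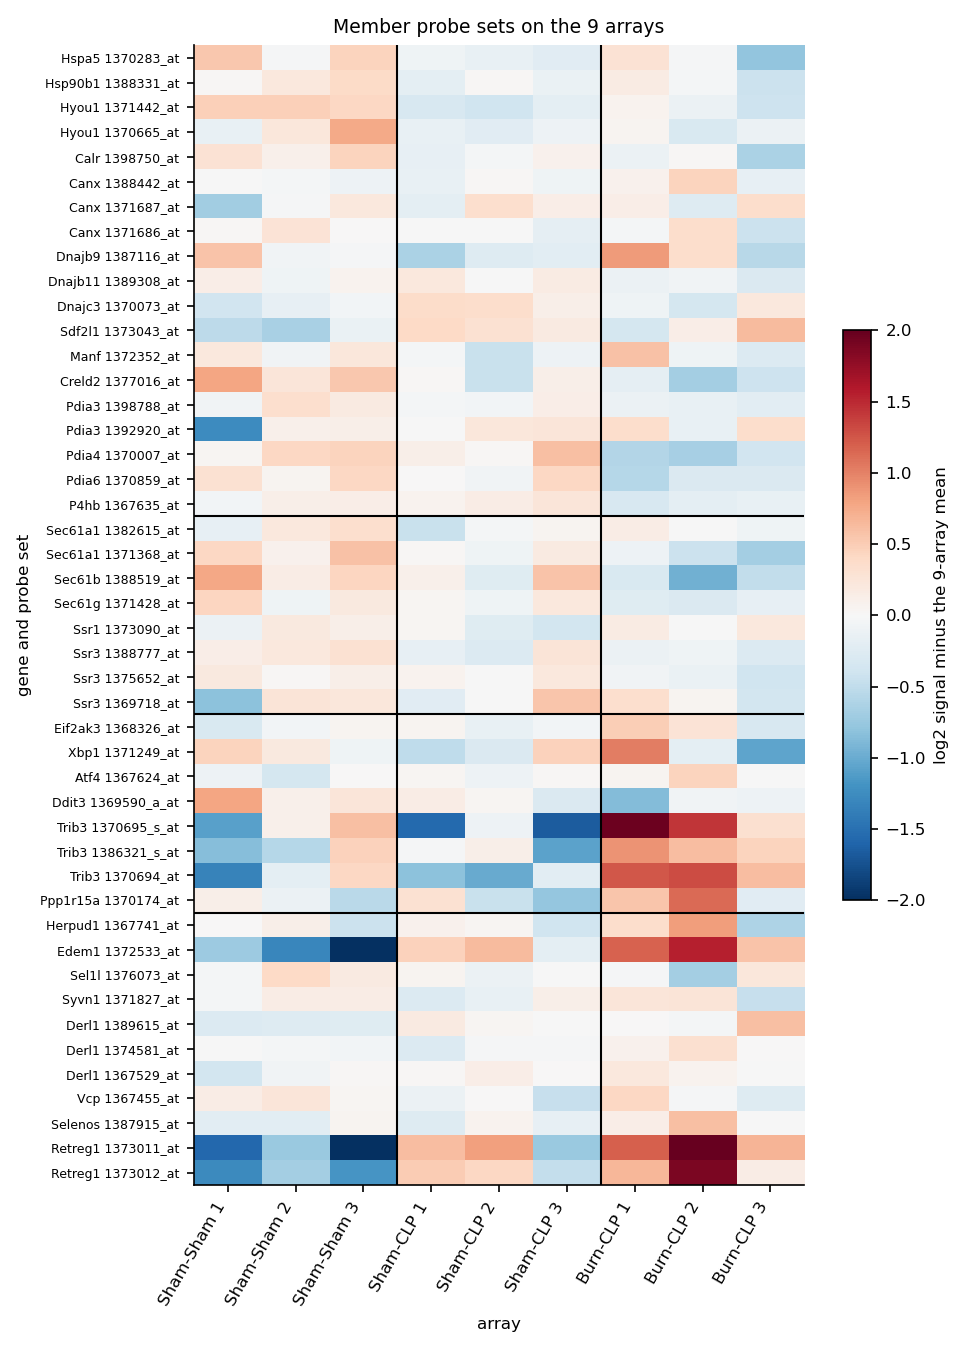
Log2 signal of the 46 member probe sets on the 9 arrays, each as the difference from its own mean over the arrays (colour scale limited to 2 in each direction); lines separate groups and roles. The Edem1 and Retreg1 rows turn from blue in Sham-Sham to red in Burn-CLP, and Xbp1 runs from red in Burn-CLP 1 to blue in Burn-CLP 3.

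The translocation genes encode the Sec61 channel, through which new chains enter the ER, and the translocon-associated (Ssr) complex. Of 5 genes, 4 had a negative change in Burn-CLP over Sham-Sham and the median was -0.37; 5 of 8 probe sets were lower without overlap and 0 higher, where 10.5% and 11% of all probe sets were. At an unadjusted p under 0.05 there were 3, all lower, against 19.9% of all, and limma called 0. In Sham-CLP over Sham-Sham all 5 genes had a negative change, with a median of -0.27. There 0 of 8 probe sets were lower without overlap and 0 higher, where 8.65% and 8.1% of all probe sets were. Sec61b, the channel's beta subunit, read 3015, 1957 and 2379 in Sham-Sham, 1899.6, 1506 and 2636 in Sham-CLP and 1428, 909 and 1253 in Burn-CLP. All Burn-CLP arrays were below all others, by -1.04 ± 0.27 from Sham-Sham and -0.74 ± 0.27 from Sham-CLP (adjusted p = 0.0958 and 0.464). Sec61g, the gamma subunit, read 3347, 2333 and 2854, 2547, 2344 and 2868 and 2089, 2035 and 2221. Burn-CLP was again lowest without overlap (-0.41 ± 0.18, adjusted p = 0.246).

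For Sec61a1, the subunit that forms the pore, the probe sets disagreed in size: the brighter differed by -0.10 ± 0.20 in Burn-CLP over Sham-Sham and the dimmer by -0.77 ± 0.21, with groups apart only at the dimmer one (adjusted p = 0.105). Ssr3 read 3652, 3851 and 4146 in Sham-Sham, 2987, 2762 and 4008 in Sham-CLP and 3074, 3161 and 2765 in Burn-CLP at its brightest probe set. Burn-CLP lay below Sham-Sham without overlap (-0.37 ± 0.18, adjusted p = 0.289), and the other Ssr3 probe sets differed by -0.31 and 0.12. Ssr1 was the exception by its sign, with 1134, 1405 and 1341, 1271, 1041 and 957 and 1375, 1230.2 and 1431 on the arrays. Its groups overlapped in each comparison, and Burn-CLP differed from Sham-Sham by 0.06 ± 0.18.

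**Figure D5:**
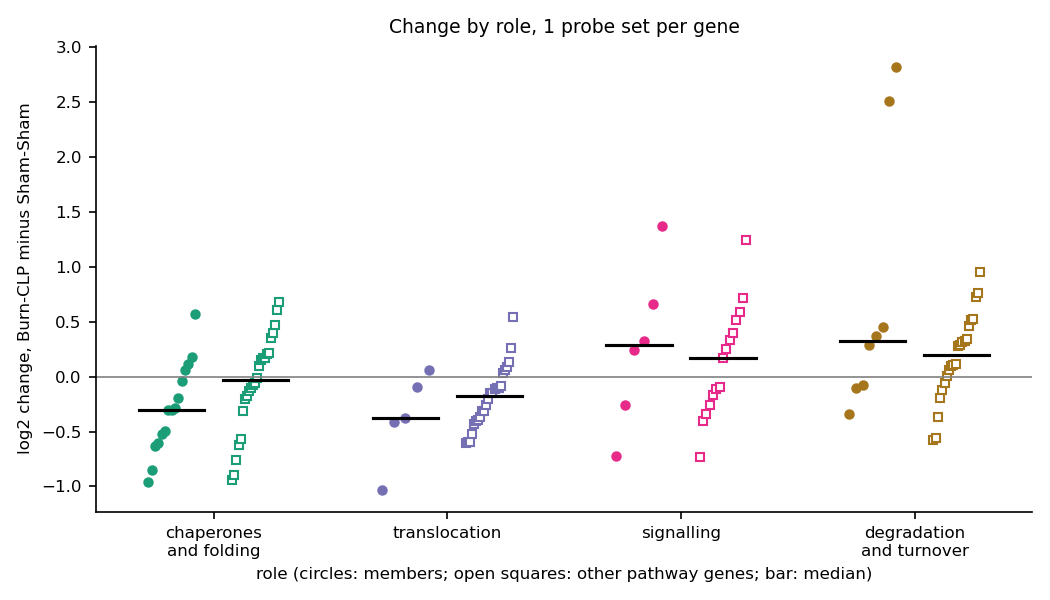
Log2 change in Burn-CLP over Sham-Sham by role, 1 probe set a gene; circles are the members, open squares other genes of the same pathways and bars the median of each group. Member medians are -0.31 for chaperones, -0.37 for translocation, 0.28 for signalling and 0.33 for degradation, with Edem1 and Retreg1 as the 2 highest circles.

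Between the CLP groups, too, the medians of the roles had different signs. In Burn-CLP over Sham-CLP, 10 of 15 chaperone genes and 3 of 5 translocation genes had a negative change (medians -0.17 and -0.10), whereas 5 of 6 signalling and 7 of 8 degradation genes had a positive one (0.19 and 0.26). The translocation median turned to 0.06 without Sham-CLP 3, and without Burn-CLP 3 the signalling and degradation medians were 0.48 and 0.43. In Sham-CLP over Sham-Sham the medians were -0.14 for chaperones, -0.27 for translocation, -0.22 for signalling and 0.01 for degradation. The first was 0.01 with the deposited scaling and -0.29 without Sham-CLP 3, and the last ran from -0.07 without Sham-CLP 2 to 0.10 without Sham-CLP 3. Whether the roles differ from each other was not tested.

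A list of 100 other genes of these pathways was compared in the same way. Of 87 on the array, 85 genes with 103 probe sets were tested, and limma called 0 in each comparison; 11, 29 and 11 passed an unadjusted p under 0.05 in Sham-CLP over Sham-Sham, Burn-CLP over Sham-Sham and Burn-CLP over Sham-CLP, where 11.7%, 19.9% and 9.09% of all probe sets did. Genes of translocation, signal cleavage and N-glycan transfer had a median change of -0.17 in Burn-CLP over Sham-Sham, with 22 of 29 probe sets negative. Other degradation genes had a median of 0.20, with 21 of 28 probe sets positive. Other folding and oxidation genes had a median of -0.03, with 14 of 28 probe sets negative, and other signalling genes one of 0.17, with 9 of 18 positive. The lists hold members of the same kind as the 36 genes and were drawn up with results of these arrays known.

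Markers of other cells were read beside these results. In Burn-CLP over Sham-Sham 2 of 62 marker probe sets were called, S100a9 of neutrophils and Dcn of stellate cells and fibroblasts, both higher. The neutrophil list, 5 of 9 genes on the array, gave summed signals per array of 508 to 1043 for Sham-Sham, 694 to 755 for Sham-CLP and 655 to 1459 for Burn-CLP. Of its 5 genes 3 had a positive change in Burn-CLP over Sham-Sham, while Ly6g6e differed by -1.21 and Mmp8 by -0.46. Ly6g6e is not the gene of the neutrophil antigen Ly6G and is a poor marker of these cells. It gave 553 of the summed 1043 on Sham-Sham 1, so the sums do not follow neutrophil genes alone. The stellate and fibroblast list, 8 of 8 genes, summed to 5578 to 6454, 3947 to 5685 and 4097 to 5502. Apart from Dcn its genes had negative changes, 7 of 8 with a median of -0.36 over the list. Among them Acta2 differed by -0.60 without overlap. Pdgfrb differed by -0.74, with overlapping groups and Burn-CLP 1 at the floor. The macrophage list, 6 of 10 genes, summed to 4916.7 to 6989, 6341.5 to 7218 and 6166 to 8928; all 6 changes were positive, from 0.08 to 1.02 for Csf1r, and none was called by limma (1 at an unadjusted p under 0.05). The T and NK cell, endothelial, bile duct and red blood cell lists had medians of -0.25, 0.56, 0.10 and -0.25. The hepatocyte list had a median of 0.03, with changes from -0.34 for Ttr to 1.66 for Tat. For both genes the Burn-CLP arrays lay apart from the Sham-Sham arrays, and neither was called by limma. Of the endothelial list 4 of 8 genes were on the array, and 3 had a positive change. Kdr, the brightest of them, differed by -0.76, with all Burn-CLP arrays below all Sham-Sham arrays (limma adjusted p = 0.192). Of the genes that mark cell types rich in ER, 2 of 9 plasma and B cell genes were on the array. They summed to 167 to 232, 229 to 331 and 152 to 318. Of these genes, Cd79b was at the floor on 2 of 3 arrays in each group, so the sums say little about such cells. The pancreatic acinar list, with 11 of 13 genes on the array, summed to 1667 to 2314, 1481 to 1648 and 1302 to 1707, and Prss2 and Cel were at the floor on all 9 arrays. The part of these cells in the member changes was not tested.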

How the data were processed

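The deposited intensity values, 1 per probe set and array on a linear scale, are the authors' own; the sources used here do not say how they were made from the scans and name no software. The 2% trimmed means of the deposited intensity lay between 500.14 and 500.17 on all 9 arrays, so the authors' values had a common scale. Probe sets were named by the platform annotation, with symbols updated to RefSeq through Entrez identifiers or accessions: 12783 had 1 symbol, 312 several and 2771 none, apart from 57 control probe sets, which were left out of the tests. The arrays were quantile normalized in R 4.3.3 with limma 3.58.1, signals under the 20th percentile of all values (64.3) were set to it, and log2 was taken. Probe sets with at least 3 of 9 arrays above that floor were tested with lmFit and eBayes, group as the only term and all 9 arrays in 1 fit, with Benjamini-Hochberg adjustment over 13535 probe sets. Only the limma fit was tested on simulated log2 values, without the normalization, floor and filter, and the outcome is not given here. The members, roles and lists were chosen with earlier results of these data known.

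A gene is represented by its probe set with the highest mean signal. Values array by array are given for called members and, in each role, for up to 4 genes with the smallest F test p and the 2 brightest; Hspa5, Dnajb9, Manf and the second probe sets of Retreg1 and Trib3 were added after their values were seen. The alternatives were the deposited scaling, other floors and filters, fits of the 2 groups compared, trend and robust eBayes, array weights, the number in the title as a block, the mean over a gene's probe sets, and leaving out each array. Promoter windows were taken from RefSeq (GRCr8) and searched for fixed motifs.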

Additional observations from a re-analysis of the deposited data

How the results depend on the processing

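Direction was kept in 18 of 18 alternatives for both called members, while the Edem1 call in Burn-CLP over Sham-Sham was kept in 10 of 18 (adjusted p from 0.00975 to 0.126) and that of Retreg1 in 7 of 18 (0.00418 to 0.167). The number of member probe sets called in that comparison, 2, was 0 with the floor at the 10th percentile, 0 without the filter and 0 in a fit of only the 2 groups compared. It was 1 without a floor (Edem1), 1 with array weights (Edem1), and 5 with trend and robust eBayes, which added the dimmer Retreg1 probe set, Pdia4 (adjusted p = 0.0383) and Sec61b (0.0477). Leaving out each array in turn gave 0 to 3: 0 without Burn-CLP 1, Burn-CLP 2, Sham-Sham 2, Sham-CLP 1 or Sham-CLP 2, 1 without Sham-Sham 1, and 3 without Sham-Sham 3 or Burn-CLP 3. The count for Sham-CLP over Sham-Sham, 0, was 1 with array weights (Edem1, adjusted p = 0.0483), and that for Burn-CLP over Sham-CLP, 0, was 1 with array weights (Trib3, 0.0371); each stayed at 0 without each array in turn. The F test, which called 0, called 1 with trend and robust eBayes (Edem1), 2 with array weights (Edem1 and Trib3), and 0 to 2 without each array in turn, the 2 without Sham-Sham 3. The cause of these moves was not tested. Numbers in the titles are shared by the groups, and the labels do not say that they pair arrays. The deviations of same-numbered arrays correlated at -0.03 to 0.08 over all probe sets tested. A correlation over all probe sets does not tell whether single genes share a pairing or a batch. For Edem1 and the brighter Retreg1 probe set, array 3 was the lowest of its group in all 3 groups. With the number as a block, the Burn-CLP over Sham-Sham count stayed at 2 and the F test called 2 (Edem1 and Retreg1), while over all probe sets 4, 59 and 0 were called in place of 8, 101 and 2. With the deposited scaling the median over all probe sets was -0.08 in Sham-CLP over Sham-Sham and 0.11 in Burn-CLP over Sham-CLP, where the normalization gave 0.00 and 0.02. Signals near the floor limit Trib3: an array at the floor understates the positive change of Burn-CLP over that array's group, and at the probe set with Sham-Sham 1 at the floor it overstates the negative change of Sham-CLP (-0.31); the stricter filter left out 2 of its probe sets.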

Other observations

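The other pathway genes given here were chosen after their values were seen, and none of them passed the threshold (limma, adjusted over all probe sets tested). In Burn-CLP over Sham-Sham, the smallest adjusted p among folding genes belonged to Fkbp11, a prolyl isomerase of secretory cells, at -0.94 (adjusted p = 0.0944), with Prdx4, the ER peroxiredoxin that helps to form disulfide bonds, at -0.90 (0.104) and the isomerase gene Fkbp2 at -0.76 (0.124). Prdx4 read 2545, 2023 and 3993 in Burn-CLP against 5623, 4534 and 5233 in Sham-Sham, and all Burn-CLP arrays lay below all others. Txndc5, a further disulfide isomerase, differed by -0.62 (0.163). Positive changes of a similar rank were those of the J-domain co-chaperone genes Dnajc1, 0.95 at its dimmer probe set (0.163) but -0.31 at the brighter one, and Dnajc10, 0.68 (0.169), and of 28 probe sets of this list 4 were higher and 4 lower at an unadjusted p under 0.05. In the N-glycan transfer step, the catalytic subunit gene Stt3b and the accessory subunit gene Ostc both differed by -0.60, and Srp9, of the signal recognition particle, by 0.54; of 29 probe sets 1 was higher and 9 lower at that threshold. On the degradation side Dnajb12, a membrane co-chaperone, differed by 0.72 (0.0983), with Burn-CLP above all Sham-Sham arrays; of 28 probe sets 6 were higher and 2 lower. The stress signalling genes of the list, not named here, had changes from -0.73 to 1.24 with 1 probe set a gene. Of their 18 probe sets 2 were higher and 1 lower at that threshold. Over all probe sets tested, 19.9% passed that threshold in either direction.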
